A study of Arabidopsis thaliana with 38 samples.

Results

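Wild-type Col-0 endosperm after 24 h of imbibition (24HAI endosperm) was compared with wild-type Col-0 seeds at the globular embryo stage, using 3 RNA-seq libraries of each. These are 6 of the 38 samples of the series, which otherwise holds the *vel3* mutant, other stages and chromatin profiles in *Arabidopsis thaliana*. The genes described were the 16270 of 26715 nuclear genes whose mean level was at least 5 TPM in either group, TPM being transcript abundance corrected for gene length and library size. The genotype was the same in both groups, and the sources name no transgene and no treatment other than water. The plants that bore the globular seeds grew at 16 °C. For the 24HAI libraries the methods state no temperature of seed set, and a figure legend of the study gives 16 °C for them as well.

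The 24HAI libraries were made from an endosperm-enriched fraction. Imbibed seeds were squeezed between glass slides, the tissue was cleaned by centrifugation in sucrose, and by the methods of the study RNA was taken up in a borate buffer before a column kit. The globular libraries were made from whole seeds dissected 8 days after pollination by the methods of the study, whose results text gives another day, with the seeds of 3 to 5 siliques pooled per library, and their RNA was extracted with the column kit alone. A whole seed holds embryo, endosperm and seed coat. Tissue, stage and RNA extraction therefore changed together between the groups and cannot be told apart, and in bulk RNA fewer cells of a type cannot be told apart from less RNA per cell. The methods call the preparations biological replicates of pooled plants, but do not say what was separate between the 3 24HAI libraries, so p-values measure the spread between these libraries, part of which may be technical.

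The endosperm of *Arabidopsis* begins as a rapidly dividing syncytium beside the embryo, becomes cellular, and is largely consumed as the embryo fills the seed. A single peripheral cell layer survives in the dry seed. That layer stores oil and protein, responds to abscisic acid, which holds the seed dormant, and to gibberellin, which promotes germination, and weakens its walls before the root emerges. At the globular stage, by contrast, the embryo is a small ball of cells, the endosperm is under control of Polycomb and MADS-box factors, and the seed coat is making proanthocyanidin pigment and preparing mucilage.

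Libraries of a group were alike, with Spearman correlations of 0.964 to 0.986 across nuclear genes within groups and 0.645 to 0.659 between groups. Chloroplast and mitochondrial genes held 0.118% ± 0.0225 of the summed TPM in 24HAI endosperm and 8.59% ± 0.917 in globular seeds (mean ± SD, n = 3 each), and they were left out before both tables were rescaled to a sum of 1000000 TPM over nuclear genes. Values below are on that scale, and the tables hold no read counts per gene, so no counting error was set on a value. Among 4212 nuclear genes listed at 0 in every 24HAI library of both genotypes, the globular mean had a median of 0.592 TPM and a 90th percentile of 3.67 TPM. A globular value up to 3.67 TPM therefore lay within the range of genes not seen in 24HAI endosperm, called the low range below. The second 24HAI library differed from the other 2 in several gene groups, and its place among the 3 is given for the lists in which it was highest or lowest most often.

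The markers of the labelled tissues were read first. *EPR1*, which encodes an extensin-like wall protein known from the germinating endosperm, had 19789, 16418 and 20470.0 TPM in 24HAI endosperm, against 37.5, 33.7 and 45.9 TPM in globular seeds (log2 difference 8.89, SE 0.16, limma adjusted p = 8.82e-10). *BAN*, for the anthocyanidin reductase of the seed coat, had 11.1, 11.2 and 7.59 TPM in 24HAI endosperm, against 458, 437 and 507 TPM in globular seeds. The embryo regulator gene *LEC1* had 0.0601, 0.119 and 0 TPM in 24HAI endosperm, against 105, 50.3 and 80.8 TPM in globular seeds. The globular seeds thus carried *BAN* and *LEC1* together. The cytokinin oxidase gene *CKX2* of the young endosperm was present as well, at 97.2, 124 and 89.4 TPM. Other embryo genes were not all like *LEC1*. Of 22 listed embryo genes, 10 had a globular mean in the low range. Of the 13 tested, 8 were lower and 3 higher in 24HAI endosperm. Not every gene known from germination or from endosperm was higher in 24HAI endosperm. *MAN7*, a mannanase gene linked to germination, had 16.1, 59.9 and 28.9 TPM in 24HAI endosperm, against 151, 135 and 168 TPM in globular seeds (log2 difference -2.27, SE 0.39, limma adjusted p = 0.00065). *NCED6*, an abscisic acid synthesis gene known from endosperm, had 0.710, 1.22 and 1.57 TPM in 24HAI endosperm, against 12.1, 10.5 and 11.6 TPM in globular seeds (log2 difference -2.54, SE 0.17, limma adjusted p = 1.38e-06).

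Of the 16270 genes tested, 2918 (17.9%) were higher and 6575 (40.4%) were lower in 24HAI endosperm than in globular seeds, at an adjusted p under 0.05 from limma on log2(TPM + 1) and at least a 2-fold difference. In 4840 genes (29.7%) each 24HAI library lay above each globular library, and in 9495 genes (58.4%) each lay below. Across the tested genes the log2 difference had a median of -0.60, the shift against which any single difference below is to be read. It depends on how the tables are scaled. Genes higher in 24HAI made up 30.7% of all calls here, 41.8% with TPM as deposited, 46.1% after median-ratio scaling (4129 higher and 4837 lower) and 50.2% after quantile normalization. For a gene that passes the level filter in 1 group alone, the filter fixes the direction. The 10419 genes at 5 TPM or more in both groups were therefore counted apart, and of these 1348 were higher and 2816 lower, with a median of -0.34. A further 1783 genes reached 5 TPM in 24HAI endosperm alone, of which 1570 were called higher. Another 4068 reached it in globular seeds alone, of which 3759 were called lower. At the edge of the filter, *AT4G12840* just passed with a mean of 5.00 TPM in 24HAI endosperm, and *MYB106* just missed it with 4.998 TPM in globular seeds. Among the genes named below with their values, the groups overlapped only in *SWEET15*, *CDKA;1* and *VEL1*. In all, 619 tested genes were listed at 0 in all 3 24HAI libraries and 36 in all 3 globular libraries.

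**Figure D1:**
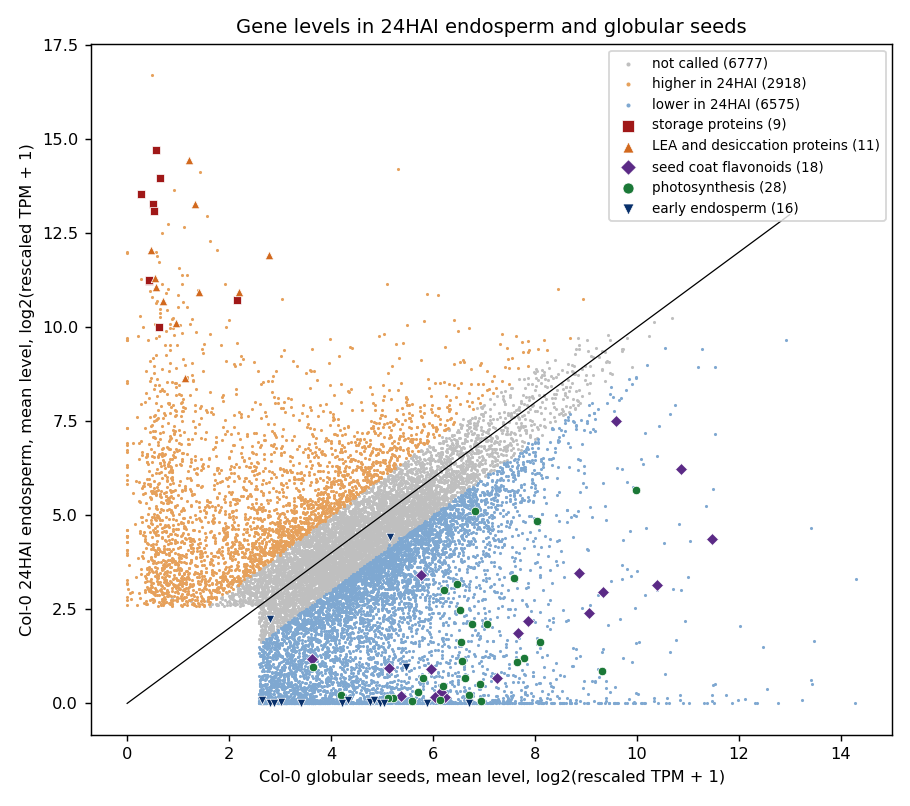
Mean level of each of the 16270 tested genes in Col-0 24HAI endosperm (vertical) and Col-0 globular seeds (horizontal), both as log2(rescaled TPM + 1); the line marks equal levels and larger symbols mark 5 gene lists. Storage and late embryogenesis abundant (LEA) protein genes sit at the upper left, while flavonoid, photosynthesis and early endosperm genes sit below the line. Except for *IKU1* and *AGL80*, the early endosperm genes are at or near 0 in 24HAI endosperm.

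The RNA of 24HAI endosperm was dominated by few genes. *PDF1.1* (*LCR67*, AT1G75830), which encodes a plant defensin, a small cysteine-rich peptide of a family with antifungal members, had 112457, 102447 and 105190.3 TPM in 24HAI endosperm, against 0, 0.332 and 0.870 TPM in globular seeds. It alone held 10.7% of the nuclear TPM of 24HAI endosperm (log2 difference 16.26, SE 0.21, limma adjusted p = 2.08e-10). The next 9 genes were the cruciferin genes *CRA1* and *CRU3*, the LEA gene *M17*, *EPR1*, the glycine-rich protein gene *AT5G35660*, *ICL* for isocitrate lyase, the albumin genes *SESA5* and *SESA3*, and the dehydrin gene *RAB18*. Their means ran from 9892 TPM for *RAB18* to 27155 TPM for *CRA1*. In globular seeds all of these 10 genes but *EPR1* had means under 2 TPM, within the low range.

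The highest genes of globular seeds were spread more evenly. *LTP6*, a gene for a lipid transfer protein, which carries lipids at the cell surface, had 8.98, 11.02 and 6.55 TPM in 24HAI endosperm, against 19431, 19257 and 21804 TPM in globular seeds (log2 difference -11.02, SE 0.17, limma adjusted p = 4.18e-10). *GILT* (AT4G12960), annotated as a lysosomal thiol reductase, was listed at 0 in all 3 24HAI libraries and had 19416, 20122 and 20285 TPM in globular seeds. The related *AT4G12870* had 0.0669, 1.39 and 0.133 TPM in 24HAI endosperm, against 11374, 10664 and 10622 TPM in globular seeds. *DELTA-VPE*, a vacuolar processing enzyme gene known from cell death in the inner seed coat, had 12.5, 43.2 and 17.1 TPM in 24HAI endosperm, against 11489, 10384 and 10775 TPM in globular seeds (log2 difference -8.94, SE 0.38, limma adjusted p = 9.51e-08). The others among the highest 10 were *AT1G56100* (a pectin methylesterase inhibitor family member), *GRP5*, *GRP7* (a circadian RNA-binding protein gene), *AT5G51105*, *AT2G02498* and *AT3G23450*, with globular means from 6006 to 11441 TPM. Of these only *GRP7* remained above 5 TPM in 24HAI endosperm, at 679, 966 and 806 TPM against 7516, 7493 and 8208 TPM in globular seeds.

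The largest differences per gene followed the same genes. The 12 largest positive ones among genes with a symbol were those of *PDF1.1*, *CRA1*, *CRU3*, *SESA5*, *M17*, *SESA3*, *ICL*, *PAP85* (a vicilin-like storage protein gene), *BGLU19* (a beta-glucosidase gene), *RAB18* and the 2 *HSD1* genes. *BGLU19* had 7868, 5651 and 6997 TPM in 24HAI endosperm, against 0.292, 0.604 and 1.33 TPM in globular seeds (log2 difference 11.97, SE 0.22, limma adjusted p = 8.15e-10). Among the 12 largest negative ones, *BG3*, a gene for a beta-1,3-glucanase, which cuts the wall polymer callose, had 0, 0 and 0.0415 TPM in 24HAI endosperm, against 5637, 4962 and 5167 TPM in globular seeds (log2 difference -12.34, SE 0.08, limma adjusted p = 6.06e-11). *BAM5*, a beta-amylase gene, had 0.110, 0.0654 and 0 TPM in 24HAI endosperm, against 4186, 3767 and 4150.0 TPM in globular seeds. *FLA10*, for an arabinogalactan protein of the cell surface, had 0.0299, 0.148 and 0.0596 TPM in 24HAI endosperm, against 3944, 4822 and 4578 TPM in globular seeds. The proline-rich wall protein gene *PRP4*, the lipid transfer genes *LTP1* and *LTP3*, the small peptide gene *SCRL10* and the expansin genes *EXPA23* and *EXPA25* completed that set with *LTP6*, *GRP5* and *GILT*. *SCRL10*, *EXPA23* and *EXPA25* were listed at 0 in every 24HAI library, and *EXPA23* had 1720.4, 2588 and 1438 TPM in globular seeds. Near-identical copies may share reads, such as the 2 *HSD1* genes, these expansins, *PHE1* and *PHE2*, the *LHCB1*, *RBCS* and *SESA* genes, *GSTF2*, *LTP3*, *PIP2;3* and the thiol reductase cluster. Their single values are uncertain to that extent, and how such reads were assigned is not given in the sources used here.

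Storage reserves and desiccation proteins made the clearest block. All 9 listed storage protein genes, all 8 oil body protein genes and all 11 LEA and desiccation genes were called higher in 24HAI endosperm, with list medians of 12.57, 8.65 and 10.03 on the log2 scale beside -0.60 over all tested genes. Of these 28 genes 27 passed the filter through 24HAI endosperm alone and 27 had a globular mean in the low range. *LEA18* was the exception, at 5.91 TPM in globular seeds. *CRA1*, for the main 12S globulin of the protein storage vacuole, had 29723, 23847 and 27896 TPM in 24HAI endosperm, against 0.449, 0.814 and 0.152 TPM in globular seeds (log2 difference 14.19, SE 0.17, limma adjusted p = 1.66e-10). *SESA3*, for a 2S albumin, had 11397, 8585 and 9870.0 TPM in 24HAI endosperm, against 0.485, 0.282 and 0.493 TPM in globular seeds. *OLEO1*, for the oleosin that coats oil bodies, had 7780.4, 5261 and 6668 TPM in 24HAI endosperm, against 2.66, 0.0796 and 0.729 TPM in globular seeds (log2 difference 11.74, SE 0.39, limma adjusted p = 2.27e-08). *EM6*, for a LEA protein that protects drying cells, had 5235, 3392 and 4206 TPM in 24HAI endosperm, against 0, 0.602 and 0.526 TPM in globular seeds (log2 difference 11.61, SE 0.21, limma adjusted p = 8.7e-10). The smallest difference of the block was in *OLEO3*, at 59.7, 46.4 and 57.0 TPM in 24HAI endosperm, against 4.49, 1.32 and 3.08 TPM in globular seeds (log2 difference 3.88, SE 0.29, limma adjusted p = 2.73e-06).

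Summed over each list, storage protein genes held 9.10%, 6.85% and 8.57% of nuclear TPM in the 3 24HAI libraries and at most 0.000828% in globular libraries. LEA and desiccation genes held 5.23% ± 0.554 in 24HAI endosperm and 0.00181% ± 0.000168 in globular seeds, and oil body genes held 1.58% ± 0.324 and 0.000945% ± 0.000333 (mean ± SD, n = 3 each). The groups did not overlap in any of these sums, and the two-sided exact permutation p was 0.1, the smallest that 3 libraries against 3 can give. In the second 24HAI library 9 of 9 storage genes, 8 of 8 oil body genes and 10 of 11 LEA genes had their lowest 24HAI value.

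**Figure D2:**
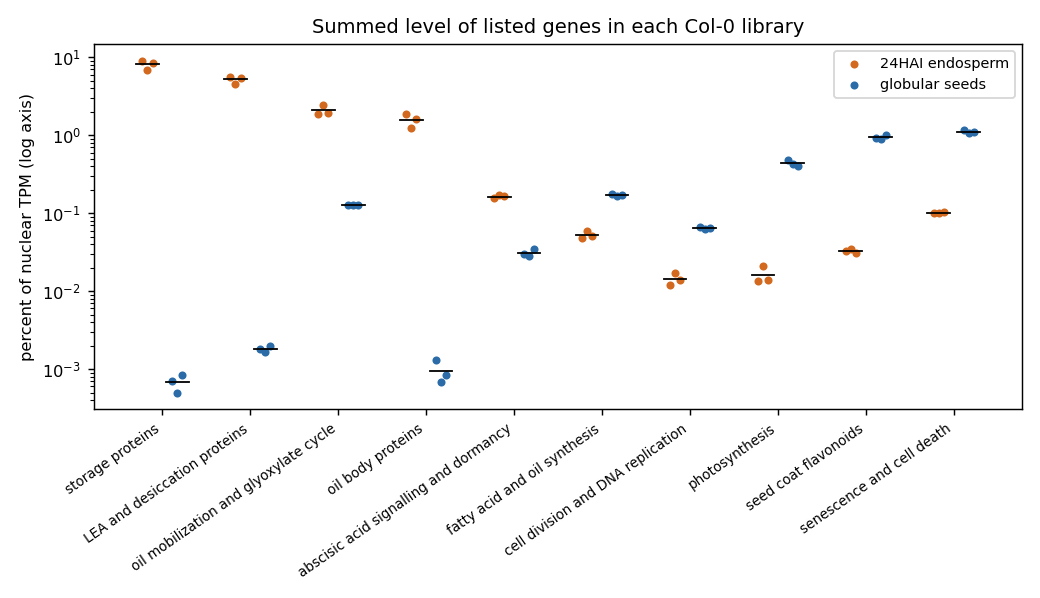
Percent of nuclear TPM held by 10 gene lists in each Col-0 library (log axis), with 24HAI endosperm to the left of globular seeds in each pair; points are libraries and lines are means of 3. Storage genes hold 6.85% to 9.10% in 24HAI endosperm and under 0.001% in globular seeds, while the flavonoid list holds 0.0326% on average in 24HAI endosperm and 0.945% in globular seeds.

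The upstream sequences of these genes are shown because the seed maturation factors of the ABI3 and ABI5 type are known to bind short elements in such promoters. The 250 bases before the annotated start were read from the TAIR10.1 genome (RefSeq), on the strand of the gene, and searched on both strands for the RY element CATGCA and the abscisic acid response element (ABRE) core ACGTG. A G-box, CACGTG, holds the core once on each strand and counts as 2 matches, and overlapping matches count separately. Capitals mark RY and ABRE core letters in the 6 promoters below.
CRA1 (chr5:17758337-17758586, minus strand): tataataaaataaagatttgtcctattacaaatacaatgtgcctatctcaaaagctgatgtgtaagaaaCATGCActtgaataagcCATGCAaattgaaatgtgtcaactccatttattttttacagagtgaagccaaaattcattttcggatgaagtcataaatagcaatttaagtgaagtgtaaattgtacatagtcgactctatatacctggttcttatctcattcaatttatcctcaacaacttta
SESA3 (chr4:13611546-13611795, plus strand): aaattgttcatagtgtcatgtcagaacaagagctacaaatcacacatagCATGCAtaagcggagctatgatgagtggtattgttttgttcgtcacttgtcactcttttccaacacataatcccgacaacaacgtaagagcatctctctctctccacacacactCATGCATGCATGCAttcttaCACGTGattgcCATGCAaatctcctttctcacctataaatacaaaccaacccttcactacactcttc
OLEO1 (chr4:12900180-12900429, plus strand): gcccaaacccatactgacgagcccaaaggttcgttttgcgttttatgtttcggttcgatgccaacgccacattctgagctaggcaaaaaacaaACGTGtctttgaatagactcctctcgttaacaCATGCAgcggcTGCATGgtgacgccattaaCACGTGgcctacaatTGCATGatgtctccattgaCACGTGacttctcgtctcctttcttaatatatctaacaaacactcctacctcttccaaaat
PDF1.1 (chr1:28472107-28472356, plus strand): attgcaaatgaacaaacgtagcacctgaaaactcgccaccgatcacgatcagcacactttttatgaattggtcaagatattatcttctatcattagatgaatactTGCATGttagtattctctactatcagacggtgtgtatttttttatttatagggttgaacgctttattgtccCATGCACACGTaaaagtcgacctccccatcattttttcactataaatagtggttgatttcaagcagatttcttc
RAB18 (chr5:26519448-26519697, minus strand): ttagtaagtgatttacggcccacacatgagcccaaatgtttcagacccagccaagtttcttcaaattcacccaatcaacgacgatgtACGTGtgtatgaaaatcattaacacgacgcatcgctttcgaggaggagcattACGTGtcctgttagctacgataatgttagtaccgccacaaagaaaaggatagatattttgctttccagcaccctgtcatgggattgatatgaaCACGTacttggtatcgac
EM6 (chr2:16780369-16780618, minus strand): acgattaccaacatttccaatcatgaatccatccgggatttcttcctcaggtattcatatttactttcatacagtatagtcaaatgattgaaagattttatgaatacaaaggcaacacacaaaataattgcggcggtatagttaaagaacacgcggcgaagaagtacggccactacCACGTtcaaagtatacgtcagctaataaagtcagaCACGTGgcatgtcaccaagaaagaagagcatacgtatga
*CRA1* held 2 RY elements and 0 ABRE cores, *SESA3* held 7 and 2, *OLEO1* held 3 and 5, and *PDF1.1* held 2 and 1. *RAB18* and *EM6* held 0 RY elements and 3 ABRE cores each. The 5 overlapping RY matches of *SESA3* lie in 1 uninterrupted run of capitals. An RY element lay upstream of 8 of 9 storage genes, 8 of 8 oil body genes and 3 of 11 LEA genes, and of 7.27% of all tested genes. An ABRE core lay upstream of 6, 5 and 9 of them, and of 23.8% of all tested genes. Across all genes called higher in 24HAI endosperm the shares were 9.94% for the RY element and 30.3% for the ABRE core, against 7.18% and 23.3% of the genes called lower. Among the 654 genes at least 16-fold higher in 24HAI endosperm the shares were 17.3% and 42.7%, against 10.3% and 23.3% of the 1324 genes at least 16-fold lower. These shares are descriptions of letters in a window, without a test.

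Oil metabolism split by direction. Genes that build fatty acids in the plastid were lower in 24HAI endosperm: of 18 listed genes of fatty acid and oil synthesis 17 were tested, 1 was higher and 15 were lower (5.88% and 88.2%, beside 17.9% and 40.4% over all genes), with a list median of -2.49. *BCCP1*, for the biotin carrier of plastid acetyl-CoA carboxylase, the enzyme of the committed step, had 3.05, 6.81 and 4.17 TPM in 24HAI endosperm, against 178, 182 and 172 TPM in globular seeds (log2 difference -5.03, SE 0.21, limma adjusted p = 8.84e-08). *WRI1*, for the transcription factor of this pathway, had 1.99, 1.63 and 1.96 TPM in 24HAI endosperm, against 26.2, 20.5 and 23.9 TPM in globular seeds (log2 difference -3.10, SE 0.13, limma adjusted p = 7.93e-08). *CAC2*, for another carboxylase subunit, had 10.0, 17.6 and 12.9 TPM in 24HAI endosperm, against 119, 125 and 122 TPM in globular seeds. *DGAT1*, for the enzyme that adds the last acyl chain of triacylglycerol, was the single gene of the list called higher, at 106, 96.5 and 104 TPM in 24HAI endosperm, against 10.9, 13.2 and 14.6 TPM in globular seeds (log2 difference 2.90, SE 0.11, limma adjusted p = 5.68e-08). *FAD2*, for the main oleate desaturase, had 182 TPM in 24HAI endosperm and 515 TPM in globular seeds, and its log2 difference of -1.51 came to -0.99, short of 2-fold, after median-ratio scaling.

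Genes that take oil apart went the other way. Of 20 genes of oil mobilization and the glyoxylate cycle, 14 were higher and 2 lower (70% and 10%, beside 17.9% and 40.4% over all genes), with a median of 1.91. Among the 17 at 5 TPM or more in both groups, 12 were higher and 1 lower. *ICL* and *MLS* encode isocitrate lyase and malate synthase, the enzymes particular to the glyoxylate cycle, through which plants make sugar from fatty acids. *ICL* had 11750.4, 15189 and 11982 TPM in 24HAI endosperm, against 0.883, 1.05 and 0.727 TPM in globular seeds (log2 difference 12.74, SE 0.13, limma adjusted p = 9.03e-11). *MLS* had 1454, 1968 and 1539.5 TPM in 24HAI endosperm, against 0.408, 0.352 and 0.737 TPM in globular seeds (log2 difference 10.105, SE 0.14, limma adjusted p = 2.83e-10). *PCK1*, for the carboxykinase that starts gluconeogenesis, had 1462, 2392 and 1713 TPM in 24HAI endosperm, against 66.5, 65.0 and 71.0 TPM in globular seeds (log2 difference 4.73, SE 0.18, limma adjusted p = 4.46e-08). The catalase gene *CAT3*, whose product removes peroxide made by beta-oxidation, had 522, 494 and 584 TPM in 24HAI endosperm, against 14.6, 13.9 and 15.1 TPM in globular seeds (log2 difference 5.10, SE 0.09, limma adjusted p = 8.05e-10).

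The steps between were higher by less. *SDP1*, for the oil body lipase, had 35.98 TPM in 24HAI endosperm and 10.7 TPM in globular seeds. *LACS7*, which activates fatty acids in the peroxisome, had 101 TPM in 24HAI endosperm and 11.3 TPM in globular seeds. *MFP2* had 575 TPM in 24HAI endosperm and 175 TPM in globular seeds, and the thiolase gene *PED1* had 879.8 TPM in 24HAI endosperm and 196 TPM in globular seeds. Paralogs split: the peroxisomal citrate synthase gene *CSY3* had 368 TPM in 24HAI endosperm and 40.4 TPM in globular seeds. *CSY2* had 20.0 TPM in 24HAI endosperm and 81.9 TPM in globular seeds. The peroxisomal malate dehydrogenase genes did the same, with 392 TPM in 24HAI endosperm and 58.5 TPM in globular seeds for *PMDH1* and 3.68 TPM in 24HAI endosperm and 22.6 TPM in globular seeds for *PMDH2*. All 4 passed the test, with log2 differences of 3.15, -2.02, 2.71 and -2.33 in that order. In the second 24HAI library 17 of the 20 genes had their highest 24HAI value, and the list held 1.85%, 2.48% and 1.96% of nuclear TPM in the 24HAI libraries against 0.126% to 0.127% in globular libraries.

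Genes of abscisic acid response and dormancy were mostly higher in 24HAI endosperm. Of 15 listed genes all were tested, 9 were higher and 1, the phosphatase gene *ABI1*, was lower (60% and 6.67%, beside 17.9% and 40.4% over all genes), with a median of 2.27. Among the 10 at 5 TPM or more in both groups, 4 were higher and 1 lower. *SOM*, for a zinc finger protein that holds back germination in the dark, had 400.5, 389.8 and 400.0 TPM in 24HAI endosperm, against 0.251, 0.545 and 0.714 TPM in globular seeds (log2 difference 8.06, SE 0.12, limma adjusted p = 3.7e-10). *AHG1*, for a seed phosphatase of the abscisic acid pathway, had 333, 438 and 382 TPM in 24HAI endosperm, against 0.822, 1.46 and 2.09 TPM in globular seeds (log2 difference 7.32, SE 0.19, limma adjusted p = 5.94e-09). *PIF1*, for the light-labile factor upstream of *SOM*, had 46.3 TPM in 24HAI endosperm and 1.48 TPM in globular seeds. *MFT*, a dormancy gene of the FT family, had 37.6 TPM in 24HAI endosperm and 0.961 TPM in globular seeds. The transcription factor genes *ABI5* and *ABI3* were also present in globular seeds. *ABI5* had 276, 279 and 319 TPM in 24HAI endosperm, against 15.1, 14.1 and 17.9 TPM in globular seeds. *ABI3* had 95.9, 103 and 107 TPM in 24HAI endosperm, against 8.38, 8.23 and 13.3 TPM in globular seeds. *DOG1*, the main quantitative dormancy gene of *Arabidopsis*, had 15.3, 8.49 and 10.7 TPM in 24HAI endosperm, against 0.268, 0.375 and 0.382 TPM in globular seeds (log2 difference 3.18, SE 0.20, limma adjusted p = 9.23e-07).

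Synthesis and turnover of the hormone differed by step. *CYP707A1*, *CYP707A2* and *CYP707A3* encode the hydroxylases that inactivate abscisic acid, and all 3 were higher. *CYP707A2*, the member known from imbibed seeds, had 24.0, 24.4 and 23.8 TPM in 24HAI endosperm, against 0.799, 1.15 and 0.893 TPM in globular seeds (log2 difference 3.69, SE 0.12, limma adjusted p = 1.53e-08). *CYP707A1* had 95.6 TPM in 24HAI endosperm and 7.07 TPM in globular seeds. *CYP707A3* had 199 TPM in 24HAI endosperm and 12.4 TPM in globular seeds. *ABA2*, for a late step of synthesis, was lower at 4.42, 5.30 and 5.19 TPM in 24HAI endosperm, against 46.3, 45.8 and 48.0 TPM in globular seeds (log2 difference -3.0005, SE 0.10, limma adjusted p = 2.07e-08). The dioxygenase genes went apart, with 9.27 TPM in 24HAI endosperm and 0.677 TPM in globular seeds for *NCED5* (log2 difference 2.65) and 1.17 TPM in 24HAI endosperm and 11.4 TPM in globular seeds for *NCED6*. Of 13 listed genes of synthesis and turnover 9 were tested, 5 were higher and 2 lower (55.6% and 22.2%, beside 17.9% and 40.4% over all genes). Among the 4 at 5 TPM or more in both groups, 3 were higher and 0 lower. For the others the filter fixed the direction.

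Gibberellin genes were likewise mixed. Of 12 synthesis and turnover genes 6 were tested, 3 higher and 3 lower, beside 17.9% and 40.4% over all genes. Among the 3 at 5 TPM or more in both groups, 1 was higher and 2 lower. *GA20OX3*, for an oxidase of the late pathway, had 94.8, 72.7 and 85.9 TPM in 24HAI endosperm, against 0.463, 0.630 and 1.24 TPM in globular seeds (log2 difference 5.60, SE 0.18, limma adjusted p = 1.7e-08). *GA2OX6*, for an enzyme that inactivates gibberellin, had 89.0, 91.3 and 113 TPM in 24HAI endosperm, against 0.311, 0.193 and 1.26 TPM in globular seeds (log2 difference 6.01, SE 0.24, limma adjusted p = 6.09e-08). *GA3*, for ent-kaurene oxidase, had 148 TPM in 24HAI endosperm and 21.7 TPM in globular seeds. *GA2*, for the step before it, had 7.08 TPM in 24HAI endosperm and 52.5 TPM in globular seeds. *GA3OX4* was listed at 0 in all 3 24HAI libraries and had 15.1, 16.3 and 10.8 TPM in globular seeds. Among signalling genes 10 of 11 were tested, 4 higher and 2 lower (40% and 20%, against the same background). Of the 5 at 5 TPM or more in both groups, 2 were higher and 0 lower. The receptor gene *GID1A* had 84.9 TPM in 24HAI endosperm and 27.5 TPM in globular seeds. *GID1C* had 9.19 TPM in 24HAI endosperm and 0.498 TPM in globular seeds. The repressor genes *RGL3* and *RGL1* moved apart with log2 differences of 3.03 and -3.57. *GASA14*, a gibberellin-responsive peptide gene, had 2.22, 8.39 and 3.66 TPM in 24HAI endosperm, against 916, 1087 and 996 TPM in globular seeds (log2 difference -7.58, SE 0.34, limma adjusted p = 1.19e-07). By contrast, *GASA6* had 90.5, 371 and 145 TPM in 24HAI endosperm, against 39.2, 19.0 and 35.2 TPM in globular seeds (log2 difference 2.47, SE 0.49, limma adjusted p = 0.00137).

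Wall-loosening genes varied widely among the 24HAI libraries. Of 12 listed genes 11 were tested, 6 were higher and 4 lower (54.5% and 36.4%, beside 17.9% and 40.4% over all genes). Only 1 of the 11 reached 5 TPM in both groups. *EXPA2*, for the expansin that marks germinating endosperm, had 69.0, 432 and 156 TPM in 24HAI endosperm, against 1.72, 1.40 and 0.184 TPM in globular seeds. The second library was the highest in 24HAI endosperm, and the log2 difference of 6.41 (limma adjusted p = 1.46e-05) came to 5.73 without that library and 7.04 without the first. *XTH31*, for a xyloglucan-modifying enzyme, had 9.02, 69.8 and 20.7 TPM in 24HAI endosperm, against 0.0668, 0.623 and 1.02 TPM in globular seeds, and its difference of 4.03 (limma adjusted p = 0.000332) came to 3.28 without the second library and 4.69 without the first. *EXPA8* had 24.2, 85.8 and 40.1 TPM in 24HAI endosperm, against 0.562, 0.273 and 0.714 TPM in globular seeds (log2 difference 4.90, SE 0.39, limma adjusted p = 4.82e-06). *XTH4* went the other way at 0.180, 3.74 and 0.754 TPM in 24HAI endosperm, against 27.02, 38.0 and 32.6 TPM in globular seeds (log2 difference -3.96, SE 0.45, limma adjusted p = 4.5e-05). Summed over the list, the groups overlapped, with 0.0447% ± 0.0353 of nuclear TPM in 24HAI endosperm and 0.0251% ± 0.00209 in globular seeds (two-sided exact permutation p = 0.6, n = 3 each).

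Genes of the low oxygen response, which is known in seeds still closed by their coat, were higher in 5 and lower in 2 of the 8 tested of 9 listed (62.5% and 25%, beside 17.9% and 40.4% over all genes). Of the 5 at 5 TPM or more in both groups, 3 were higher and 1 lower. *ADH1*, for the dehydrogenase of ethanol fermentation, had 711, 609 and 504 TPM in 24HAI endosperm, against 6.71, 6.53 and 8.18 TPM in globular seeds (log2 difference 6.22, SE 0.14, limma adjusted p = 2.64e-09). *HB1*, for a haemoglobin that scavenges nitric oxide, had 161, 226 and 141 TPM in 24HAI endosperm, against 0.753, 0.438 and 1.05 TPM in globular seeds (log2 difference 6.65, SE 0.20, limma adjusted p = 1.18e-08). The oxygen-sensing cysteine oxidase genes *PCO1* and *PCO2* had log2 differences of 3.33 and 3.98. *SUS1*, a sucrose synthase gene, was lower at 1.41, 5.04 and 1.82 TPM in 24HAI endosperm, against 58.6, 56.3 and 63.1 TPM in globular seeds (log2 difference -4.13, SE 0.31, limma adjusted p = 2.93e-06). *PDC1*, for pyruvate decarboxylase, had 32.0, 133 and 49.5 TPM in 24HAI endosperm, against 12.3, 13.6 and 14.3 TPM in globular seeds (log2 difference 2.08, SE 0.44, limma adjusted p = 0.00201), again with the highest value in the second library.

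Of 21 genes linked to senescence and cell death only 7 reached 5 TPM, and 2 of these were higher and 4 lower. With so few tested, these counts lie near the background of 17.9% and 40.4% and say nothing particular about the list. *WRKY53*, a senescence regulator in leaves, had 41.3, 45.8 and 45.6 TPM in 24HAI endosperm, against 0.492, 0.621 and 0.625 TPM in globular seeds (log2 difference 4.84, SE 0.11, limma adjusted p = 2.3e-09). The vacuolar processing enzymes, proteases that mature or destroy vacuole contents, moved apart: *BETA-VPE*, which matures storage proteins, had 904, 811 and 907 TPM in 24HAI endosperm, against 31.9, 24.7 and 32.0 TPM in globular seeds (log2 difference 4.85, SE 0.12, limma adjusted p = 4.63e-09). *GAMMA-VPE* of vegetative tissue had 26.3 TPM in 24HAI endosperm and 96.2 TPM in globular seeds. *DELTA-VPE* was lower, as given above, with the highest of its 24HAI values in the second library. *CEP1*, a cysteine protease gene of dying cells, had 1.14, 1.02 and 0.808 TPM in 24HAI endosperm, against 25.3, 28.2 and 30.2 TPM in globular seeds (log2 difference -3.86, SE 0.12, limma adjusted p = 1.79e-08).

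Most genes of the early endosperm were at or near 0 after imbibition. Of 25 listed genes 14 were listed at 0 in all 3 24HAI libraries, 16 were tested, 15 of them through globular seeds alone, and 14 were lower (87.5%, beside 40.4% over all genes). *CKX2*, for a cytokinin oxidase, had 0 in all 3 24HAI libraries and 97.2, 124 and 89.4 TPM in globular seeds. The MADS-box genes *PHE2*, *PHE1* and *AGL40* were likewise at 0 in 24HAI libraries, and had 58.9, 57.6 and 58.6 TPM (*PHE2*), 28.7, 34.6 and 27.1 TPM (*PHE1*) and 35.7, 32.1 and 27.5 TPM (*AGL40*) in globular seeds. *FIS2*, for the Polycomb subunit of the young endosperm, had 0, 0 and 0.0664 TPM in 24HAI endosperm, against 29.5, 23.7 and 25.1 TPM in globular seeds (log2 difference -4.72, SE 0.13, limma adjusted p = 6.41e-09). The imprinted homeodomain gene *FWA* had 0.589, 1.33 and 0.963 TPM in 24HAI endosperm, against 47.1, 45.9 and 37.6 TPM in globular seeds (log2 difference -4.52, SE 0.17, limma adjusted p = 3.91e-08). Only *IKU1* and *AGL80* of the tested members were not called, at 20.7 TPM in 24HAI endosperm and 34.7 TPM in globular seeds for *IKU1* and 3.75 TPM in 24HAI endosperm and 6.02 TPM in globular seeds for *AGL80*.

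Embryo genes were mostly lower, with exceptions. Of 22 embryo patterning genes 13 were tested, 8 were lower and 3 higher (61.5% and 23.1%, beside 40.4% and 17.9% over all genes). Only 3 of the 13 reached 5 TPM in both groups, of which 1 was lower. *LEC1*, the regulator of embryo identity, had 0.0601, 0.119 and 0 TPM in 24HAI endosperm, against 105, 50.3 and 80.8 TPM in globular seeds (log2 difference -6.17, SE 0.24, limma adjusted p = 5.89e-08). The auxin response factor gene *MP* had 0.370, 0.812 and 0.481 TPM in 24HAI endosperm, against 47.0, 50.2 and 52.7 TPM in globular seeds (log2 difference -5.04, SE 0.13, limma adjusted p = 6.13e-09). *SHR*, for a root patterning factor, had 0.0268, 0.477 and 0.320 TPM in 24HAI endosperm, against 20.9, 28.2 and 34.6 TPM in globular seeds (log2 difference -4.49, SE 0.21, limma adjusted p = 1.64e-07). *ATML1*, an epidermis gene, had 23.8 TPM in 24HAI endosperm and 120.0 TPM in globular seeds. The 3 higher genes were *WOX2*, a homeobox gene of the early embryo, at 34.0, 41.8 and 32.5 TPM in 24HAI endosperm, against 0.729, 1.98 and 2.298 TPM in globular seeds (log2 difference 3.84, SE 0.24, limma adjusted p = 9.83e-07), the maturation regulator *FUS3* at 23.8 TPM in 24HAI endosperm and 3.36 TPM in globular seeds and *WOX9* at 15.3 TPM in 24HAI endosperm and 3.08 TPM in globular seeds, each with a globular mean in the low range.

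**Figure D3:**
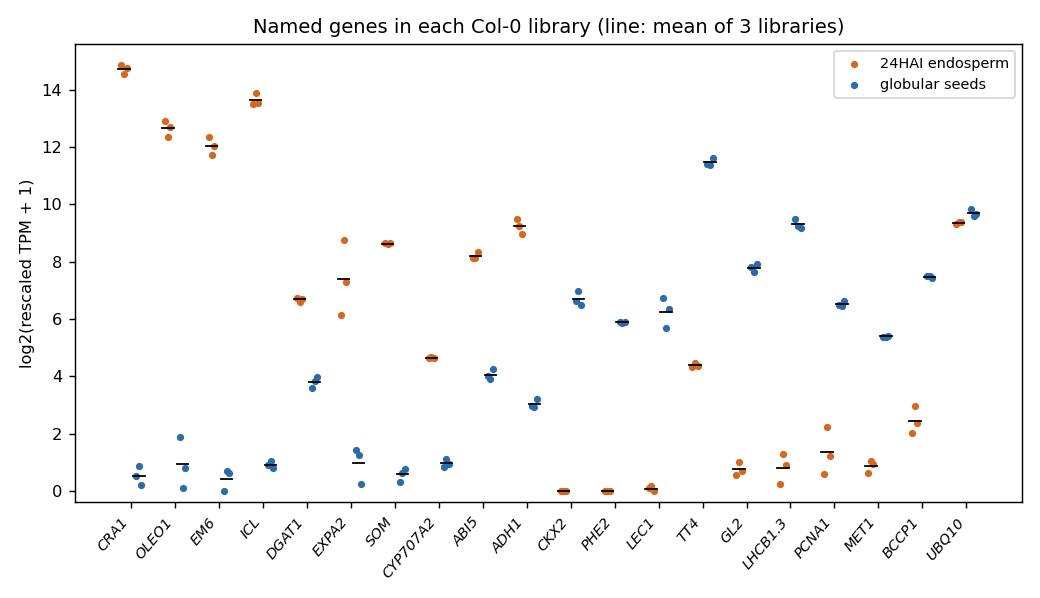
Level of 20 named genes in each Col-0 library as log2(rescaled TPM + 1), with 24HAI endosperm to the left of globular seeds for each gene; points are libraries and lines are means of 3. From *CRA1* to *ADH1* every 24HAI point lies above every globular point, and from *CKX2* to *UBQ10* every 24HAI point lies below, which for *UBQ10* holds on this scaling and reverses in the mean with TPM as deposited.

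Seed coat pigment genes were lower throughout. All 18 flavonoid genes were lower in 24HAI endosperm, with a median of -5.74, 11 of them passing the filter through globular seeds alone. *TT4*, for chalcone synthase, the entry enzyme of flavonoid synthesis, had 19.2, 21.0 and 19.4 TPM in 24HAI endosperm, against 2754, 2657 and 3144 TPM in globular seeds (log2 difference -7.09, SE 0.10, limma adjusted p = 3.04e-10). *TT3*, for dihydroflavonol reductase, had 7.62, 8.26 and 7.75 TPM in 24HAI endosperm, against 1289.5, 1233 and 1495 TPM in globular seeds (log2 difference -7.23, SE 0.10, limma adjusted p = 2.51e-10). *TT5*, for chalcone isomerase, had 4.31 TPM in 24HAI endosperm and 532 TPM in globular seeds. The regulator genes *TT8* and *TT2* had log2 differences of -6.60 and -5.85. The smallest difference was in *F3H*, for flavanone hydroxylase, at 182, 193 and 172 TPM in 24HAI endosperm, against 730.1, 751 and 827 TPM in globular seeds (log2 difference -2.07, SE 0.11, limma adjusted p = 2.91e-07). The list as a whole held 0.0326% ± 0.00194 of nuclear TPM in 24HAI endosperm and 0.945% ± 0.0681 in globular seeds (mean ± SD, n = 3 each, two-sided exact permutation p = 0.1).

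Of 13 mucilage genes 11 were tested and 10 were lower (90.9%, beside 40.4% over all genes), with a median of -3.67. Of the 11, 9 passed the filter through globular seeds alone, which fixed their direction. Of the 2 at 5 TPM or more in both groups, 1 was lower and 0 higher. *GL2*, for a homeodomain factor of the seed coat epidermis, had 0.454, 0.988 and 0.634 TPM in 24HAI endosperm, against 225, 200.4 and 239 TPM in globular seeds (log2 difference -7.05, SE 0.14, limma adjusted p = 1.07e-09). *MYB61* had 0.173 TPM in 24HAI endosperm and 103 TPM in globular seeds. *KNAT7* had 0.660 TPM in 24HAI endosperm and 139 TPM in globular seeds and *MYB5* had 0.476 TPM in 24HAI endosperm and 64.8 TPM in globular seeds, all 3 being genes for transcription factors of the coat. Sugar import genes followed: *SWEET12* and *SUC5*, which export and import sucrose, and the cell wall invertase gene *CWINV4* had 24HAI means of at most 0.227 TPM and globular means of 27.3, 28.6 and 28.2 TPM in that order. *SWEET15* was not called, with 15.4, 21.9 and 15.9 TPM in 24HAI endosperm, against 15.8, 1.18 and 7.21 TPM in globular seeds (log2 difference 1.47, SE 0.63, limma adjusted p = 0.057). Without the first globular library it passed the test, at a log2 difference of 2.13. Without the second globular library the difference came to 0.66 and did not pass (limma adjusted p = 0.0986).

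Photosynthesis genes were lower without exception among the 28 listed, with a median of -5.09, and 22 of them passed through globular seeds alone. *LHCB1.3*, for a light-harvesting protein, had 0.189, 1.45 and 0.849 TPM in 24HAI endosperm, against 722, 603 and 584 TPM in globular seeds (log2 difference -8.50, SE 0.24, limma adjusted p = 8.68e-09), with the caution on *LHCB1* copies above. *LHCA1* had 1.33, 1.54 and 1.09 TPM in 24HAI endosperm, against 219, 240.0 and 201 TPM in globular seeds (log2 difference -6.58, SE 0.11, limma adjusted p = 5.63e-10). *PSAF*, for a photosystem I subunit, had 2.098 TPM in 24HAI endosperm and 275 TPM in globular seeds. *RBCS1A*, for the small subunit of Rubisco, had 33.5, 76.3 and 40.7 TPM in 24HAI endosperm, against 1177, 974 and 899.8 TPM in globular seeds. The smallest difference was in *LHCB4.1*, at 35.7, 32.6 and 32.5 TPM in 24HAI endosperm, against 119.8, 105 and 114 TPM in globular seeds (log2 difference -1.72, SE 0.09, limma adjusted p = 2.91e-07). In 24HAI endosperm 23 of the 28 were highest in the second library.

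Genes of DNA replication and division were lower in 21 and higher in 2 of 26 tested of 30 listed (80.8% and 7.69%, beside 40.4% and 17.9% over all genes), with a median of -3.16. Of the 26, 19 passed through globular seeds alone, which fixed their direction, and of the 6 at 5 TPM or more in both groups 2 were lower and 1 higher. *PCNA1*, for the sliding clamp of DNA polymerase, had 0.515, 3.72 and 1.33 TPM in 24HAI endosperm, against 88.6, 86.5 and 96.8 TPM in globular seeds (log2 difference -5.16, SE 0.35, limma adjusted p = 1.74e-06). *MCM7*, for a subunit of the replicative helicase, and *CDT1A*, for a protein that loads it, had log2 differences of -4.22 and -4.17, and *CDKB2;2*, for a mitotic kinase, had 0.0418, 0.124 and 0.0833 TPM in 24HAI endosperm, against 19.0, 21.1 and 17.2 TPM in globular seeds (log2 difference -4.21, SE 0.12, limma adjusted p = 1.12e-08). The kinase gene *CDKA;1* was not called, at 39.1 TPM in 24HAI endosperm and 35.8 TPM in globular seeds. The 2 higher genes were *RNR2A*, for a ribonucleotide reductase subunit, and *AUR2*, for an Aurora kinase. *RNR2A* had 37.9, 44.5 and 39.9 TPM in 24HAI endosperm, against 16.9, 10.3 and 14.2 TPM in globular seeds (log2 difference 1.52, SE 0.17, limma adjusted p = 3.71e-05). *AUR2* had 9.32, 6.61 and 9.22 TPM in 24HAI endosperm, against 1.68, 2.43 and 3.02 TPM in globular seeds (log2 difference 1.48, SE 0.19, limma adjusted p = 0.000103).

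The next promoters are those of helicase genes and of a light-harvesting gene, read as above. Capitals mark the E2F site TTTCCCGC and the site II element TGGGCC in *MCM5* and *MCM6*, and the I-box GATAAG in *LHCA1*, each on either strand.
MCM5 (chr2:3527501-3527750, minus strand): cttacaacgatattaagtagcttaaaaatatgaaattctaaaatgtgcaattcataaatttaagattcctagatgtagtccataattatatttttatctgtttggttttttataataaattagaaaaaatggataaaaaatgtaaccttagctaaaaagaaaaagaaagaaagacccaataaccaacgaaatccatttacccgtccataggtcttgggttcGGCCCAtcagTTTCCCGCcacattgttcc
MCM6 (chr5:18010668-18010917, minus strand): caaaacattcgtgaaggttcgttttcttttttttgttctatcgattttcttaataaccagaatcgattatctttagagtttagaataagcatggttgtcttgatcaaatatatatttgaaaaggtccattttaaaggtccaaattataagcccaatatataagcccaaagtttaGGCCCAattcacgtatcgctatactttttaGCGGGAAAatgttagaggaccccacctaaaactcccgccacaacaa
LHCA1 (chr3:20341177-20341426, minus strand): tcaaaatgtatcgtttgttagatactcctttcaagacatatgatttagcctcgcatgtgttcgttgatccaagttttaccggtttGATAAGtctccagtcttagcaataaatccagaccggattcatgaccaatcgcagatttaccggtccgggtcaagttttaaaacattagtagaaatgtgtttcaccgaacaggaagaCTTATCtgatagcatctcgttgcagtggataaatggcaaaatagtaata
*MCM5* had 2.01, 3.70 and 2.997 TPM in 24HAI endosperm, against 40.3, 40.8 and 38.4 TPM in globular seeds (log2 difference -3.41, SE 0.16, limma adjusted p = 1.88e-07). *MCM5* and *MCM6* each held 1 E2F site and 1 site II element, and *LHCA1* held 2 I-boxes. An E2F site, known from genes of DNA synthesis, lay upstream of 4 of 30 division genes and of 0.609% of all tested genes. A site II element lay upstream of 9 of the 30 and of 18% of all tested genes. An I-box lay upstream of 8 of 28 photosynthesis genes and of 12.3% of all tested genes. Among all genes called lower in 24HAI endosperm the shares were 0.852% for the E2F site and 11.1% for the I-box, against 0.206% and 15% of those called higher. For the site II element the shares were 15.6% of the genes called lower and 12.7% of those called higher, both under the share of all tested genes.

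Chromatin genes were read because the series is about VEL3, which the study links to a histone deacetylase complex and to the repressive histone mark H3K27me3. Of 31 listed genes 28 were tested, 23 of them at 5 TPM or more in both groups, and 2 were higher and 15 lower (7.14% and 53.6%, beside 17.9% and 40.4% over all genes), with a median of -1.20. Among the 23, 2 were higher and 10 lower. The largest difference was in *MET1*, for the methyltransferase that maintains CG methylation, which had 0.540, 1.08 and 0.917 TPM in 24HAI endosperm, against 40.4, 40.6 and 41.9 TPM in globular seeds (log2 difference -4.52, SE 0.13, limma adjusted p = 1.2e-08). *VIM1*, its partner, had 0.375, 1.32 and 0.538 TPM in 24HAI endosperm, against 28.5, 29.4 and 31.4 TPM in globular seeds (log2 difference -4.18, SE 0.19, limma adjusted p = 1.62e-07). The remodeller gene *DDM1* had 1.47 TPM in 24HAI endosperm and 18.7 TPM in globular seeds. The higher genes were *HD2A*, for a plant-specific histone deacetylase, and the demethylase gene *JMJ13*. *HD2A* had 149, 216 and 172 TPM in 24HAI endosperm, against 37.6, 33.2 and 34.2 TPM in globular seeds (log2 difference 2.31, SE 0.14, limma adjusted p = 7.32e-07). *JMJ13* had 24.1 TPM in 24HAI endosperm and 10.8 TPM in globular seeds, and its difference of 1.13 came to 0.95 without the first globular library. Of the *VEL* genes themselves, *VEL3* and *VEL2* did not pass the filter, with *VEL3* listed at 0 in all 3 24HAI libraries and at a mean of 2.45 TPM in globular seeds. *VEL1* had 9.01, 22.3 and 13.1 TPM in 24HAI endosperm, against 14.8, 11.98 and 15.03 TPM in globular seeds and was not called (limma adjusted p = 0.998). Its log2 difference of 0.00 came to -0.32 without the second 24HAI library.

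**Figure D4:**
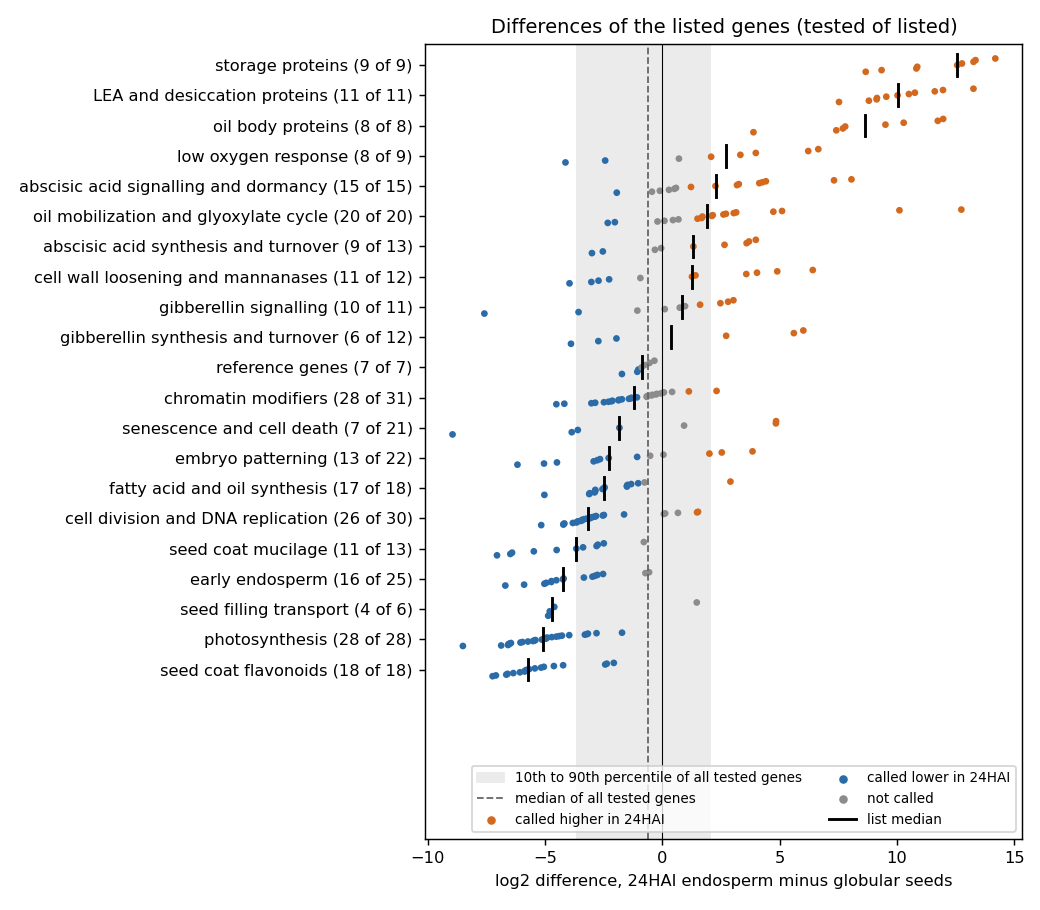
Log2 difference, 24HAI endosperm minus globular seeds, of every tested member of 21 gene lists, ordered by list median (bars); the dashed line and the band give the median (-0.60) and the 10th to 90th percentile (-3.63 to 2.05) of all tested genes. Storage, LEA and oil body genes lie farthest right and flavonoid genes farthest left, and the hormone and wall lists hold members on both sides.

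Gene families named by their annotation gave a similar division. WRKY factors, known from defence and stress, were higher in 16 and lower in 4 of 24 tested, 66.7% and 16.7%, beside 17.9% and 40.4% over all genes. Among the 8 at 5 TPM or more in both groups, 4 were higher and 0 lower. *WRKY33* had 376, 456 and 451 TPM in 24HAI endosperm, against 0.551, 0.998 and 2.66 TPM in globular seeds (log2 difference 7.57, SE 0.28, limma adjusted p = 4.19e-08). *WRKY40* had 207, 282 and 245 TPM in 24HAI endosperm, against 1.33, 1.04 and 2.21 TPM in globular seeds (log2 difference 6.62, SE 0.18, limma adjusted p = 8.18e-09). By contrast, *WRKY62* was at 0 in the 24HAI libraries and at 23.3, 21.2 and 24.8 TPM in globular seeds. AP2/ERF factors were higher in 30 and lower in 9 of 50 tested (60% and 18%), and in 7 and 0 of the 14 at 5 TPM or more in both groups. The repressor gene *ERF4* (*RAP2.5*) had 133 TPM in 24HAI endosperm and 13.9 TPM in globular seeds and *AT1G22190* had 151 TPM in 24HAI endosperm and 2.91 TPM in globular seeds. *AP2*, known for its effect on seed size, had 0.437, 1.04 and 1.19 TPM in 24HAI endosperm, against 93.8, 96.0 and 98.9 TPM in globular seeds (log2 difference -5.71, SE 0.16, limma adjusted p = 9e-09).

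AGAMOUS-like and other MADS-box factors were higher in 4 and lower in 31 of 43 tested (9.3% and 72.1%, beside 17.9% and 40.4% over all genes). Of the 43, 31 passed the filter through globular seeds alone, and of the 7 at 5 TPM or more in both groups 1 was lower. The highest in globular seeds were genes known from carpel, ovule and petal identity. *SHP2* (*AGL5*) had 0.499, 0.539 and 0.498 TPM in 24HAI endosperm, against 545, 545 and 580.0 TPM in globular seeds (log2 difference -8.53, SE 0.08, limma adjusted p = 8.74e-11). *STK*, for ovule identity, had 0.0246, 0.170 and 0.0980 TPM in 24HAI endosperm, against 290.3, 311 and 302 TPM in globular seeds (log2 difference -8.11, SE 0.09, limma adjusted p = 1.44e-10). *AP3*, for petal and stamen identity, had 0.431, 0.332 and 0.239 TPM in 24HAI endosperm, against 479.9, 488 and 504 TPM in globular seeds (log2 difference -8.53, SE 0.09, limma adjusted p = 1.07e-10). The exceptions included *AGL67*, a gene of maturing seeds, at 218, 184 and 209 TPM in 24HAI endosperm, against 1.72, 0.410 and 0.738 TPM in globular seeds (log2 difference 6.76, SE 0.22, limma adjusted p = 2.04e-08), and the floral repressor gene *FLC* at 42.0, 41.5 and 42.3 TPM in 24HAI endosperm, against 2.602, 1.41 and 4.25 TPM in globular seeds (log2 difference 3.59, SE 0.25, limma adjusted p = 1.88e-06).

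Aquaporins exchanged members. *TIP3;1* and *TIP3;2* (*BETA-TIP*), for the water channels of the seed storage vacuole, had 2322, 1675 and 2062 TPM in 24HAI endosperm, against 0.316, 0.307 and 0.481 TPM in globular seeds for *TIP3;1* and 954 TPM in 24HAI endosperm and 0.685 TPM in globular seeds for *TIP3;2*. The plasma membrane channel gene *PIP2;3* (*RD28*) had 0.668, 0.236 and 0.476 TPM in 24HAI endosperm, against 349, 282 and 306 TPM in globular seeds (log2 difference -7.75, SE 0.14, limma adjusted p = 6.91e-10). Glutathione S-transferases, which detoxify reactive compounds, were higher in 17 and lower in 12 of 38 tested (44.7% and 31.6%, against the same background). Among the 23 at 5 TPM or more in both groups, 9 were higher and 5 lower. *GSTF2* had 1783 TPM in 24HAI endosperm and 0.409 TPM in globular seeds (log2 difference 10.33). *TT19*, the family member of the flavonoid pathway, had a log2 difference of -5.68.

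Secreted and wall protein families were counted likewise. Pectin methylesterases and their inhibitors were lower in 43 of 50 tested (86%, beside 40.4% over all genes). Of the 50, 42 passed the filter through globular seeds alone, which fixed their direction, and of the 5 at 5 TPM or more in both groups 2 were lower and 1 higher. The family held at most 0.0441% of nuclear TPM in a 24HAI library and at least 2.24% in a globular library. *AT4G15750*, an inhibitor family member, had 3.34, 3.45 and 2.80 TPM in 24HAI endosperm, against 4409.5, 3749.8 and 4331 TPM in globular seeds (log2 difference -9.95, SE 0.11, limma adjusted p = 1.11e-10). Defensin-like and other cysteine-rich genes were lower in 98 of 113 tested (86.7%, beside 40.4% over all genes), and 94 of the 113 passed through globular seeds alone. Of the 11 at 5 TPM or more in both groups 4 were lower and 1 higher. *AT5G55132* had 0, 0.139 and 0 TPM in 24HAI endosperm, against 2778, 3210.2 and 2554 TPM in globular seeds, although *PDF1.1* of the same family was the highest gene of 24HAI endosperm. Lipid transfer proteins were lower in 32 and higher in 7 of 43 tested (74.4% and 16.3%, beside 40.4% and 17.9% over all genes), with 29 of the 43 passing through globular seeds alone. Of the 7 at 5 TPM or more in both groups 4 were lower and 0 higher. *LTP2*, which had 201, 281 and 226 TPM in 24HAI endosperm, against 1.84, 0.714 and 0.850 TPM in globular seeds (log2 difference 6.82, SE 0.21, limma adjusted p = 1.3e-08), thus went against *LTP1*, *LTP3* and *LTP6*.

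Reference genes set the scale for small differences. None of the 7 listed was higher, and 3, *SAND*, *UBC21* and *GAPC1*, were called lower, at log2 differences of -1.72, -1.07 and -1.02. The share called lower, 42.9%, lay near the 40.4% over all genes, so the count says nothing particular about these genes. The call of *UBC21* was lost under 5 of the alternative settings and that of *GAPC1* under 7. *UBQ10* had 635, 674 and 669 TPM in 24HAI endosperm, against 912, 779 and 816 TPM in globular seeds and a log2 difference of -0.34 (limma adjusted p = 0.0301), which became 0.03 with TPM as deposited and 0.18 after median-ratio scaling. *ACT2* had 16.02 TPM in 24HAI endosperm and 29.6 TPM in globular seeds (log2 difference -0.88).

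The same comparison was made with the libraries labelled *vel3*, which share no library with the Col-0 groups. There 2048 of 16270 genes (12.6%) were higher and 6813 (41.9%) lower. The genes higher in both genotypes were 64.8% of those of Col-0 and 92.3% of those of *vel3*, and the genes lower in both were 92.5% and 89.3%. The third *vel3* globular library, in which genes silent in 24HAI endosperm had a median of 14.1 TPM, bore on the first of these shares. Without it 2759 genes were higher and the shared part was 86.2% of Col-0 and 91.2% of *vel3*. List medians in Col-0 and *vel3* had the same sign for storage genes (12.57 in Col-0 and 10.65 in *vel3*), oil mobilization (1.91 and 1.902), low oxygen (2.70 and 3.86), flavonoids (-5.74 and -5.36), photosynthesis (-5.09 and -4.76) and early endosperm (-4.22 and -4.70). They had opposite signs for wall loosening, at 1.26 in Col-0 and -0.15 in *vel3*, and for gibberellin synthesis and turnover, at 0.38 in Col-0 and -0.50 in *vel3*. These differences between list medians were not tested. The *vel3* medians include the globular library in which genes silent in 24HAI endosperm had a median of 14.1 TPM. Without that library wall-loosening genes moved both ways in *vel3*. The log2 difference of *EXPA2* went from 6.11 to 7.08, that of *EXPA8* from 4.50 to 5.21 and that of *XTH31* from 3.86 to 4.73. That of *XTH4* went from -3.80 to -3.78, and that of *MAN7* from -0.58 to -0.77. Whether the opposite signs hold without that library was not tested.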

How the data were processed

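RNA-seq libraries of Col-0 24HAI endosperm and Col-0 globular seeds (3 each) were compared, and the matching *vel3* libraries (3 each) were read beside them. The deposited values are TPM per gene, which the authors made by trimming reads with cutadapt (1.9.1), aligning them to TAIR10 with STAR (2.5) and counting sense reads with featureCounts, in one table per stage. How reads shared by several genes were treated is not given in the sources used here. The study lists read totals per library, which were not used here, and the tables hold no counts per gene, so no counting interval was set. TPM depends on the other genes of a library, so a group dominated by few genes has lower values in all others. Unlisted genes made up 1.80% to 1.94% of the TPM sum in 24HAI tables and 13.7% to 19.3% in globular tables.

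The tables were joined by gene identifier, 210 organelle genes were left out, and each library was rescaled to 1000000 TPM over 26715 nuclear genes. The 16270 genes that averaged 5 TPM or more in either group were tested with limma (3.58.1, R 4.3.3) with a trend on log2(TPM + 1), with Benjamini-Hochberg adjustment over all of them. Genes were called where the adjusted p was under 0.05 and the difference 2-fold or more. On simulated data with 200 of 16270 genes changed by 1.5 on the log2 scale, 188 were called and 0 others. The simulation used normal noise, as many genes up as down, and no rescaling. It therefore cannot show how the scaling, the level filter or a shift of most genes bears on the real calls. List shares were compared by exact permutation. The genes named were the 10 highest of each group, the 12 largest differences in each direction among called genes with a symbol, up to 4 of each list or members singled out for their role, and the reference genes. Members and lists were chosen with earlier results of these data known. Group labels came from the sample titles, and the globular columns were tied to their group, with the number in their names used for the replicate block alone. Promoters were read from the TAIR10.1 RefSeq genome and annotation, with 26714 of 26715 genes matched. The alternatives were pseudocount, level filter, scaling, background subtraction, variance model, fold minimum, all 12 libraries in 1 fit, a replicate block, and each library left out.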

Additional observations from a re-analysis of the deposited data

Results flagged for a closer look

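In 14 of the 182 named genes, the difference between 24HAI endosperm and globular seeds was itself different in Col-0 and *vel3* by an interaction term (limma, adjusted over 16270 genes, of which 384 passed). Values are the Col-0 log2 difference minus the *vel3* log2 difference. *CAT3*, the catalase gene, stood at 1.8583 (adjusted p = 0.000999), with 111, 119 and 130 TPM in *vel3* 24HAI endosperm, against 9.48, 11.5 and 14.9 TPM in *vel3* globular seeds. *CYP707A3* stood at 1.5725 (limma adjusted p = 0.0422), *GA3* at 0.8340 (limma adjusted p = 0.0117) and AT1G22190 at 1.5434 (limma adjusted p = 0.0152), all with smaller positive differences in *vel3*. *LEC1* stood at -1.8578 (limma adjusted p = 0.019), with 18.1, 20.5 and 24.3 TPM in *vel3* globular seeds.

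The others that were lower in 24HAI endosperm in both genotypes, and by less in *vel3*, were AT1G56100 at -1.2541, *MYB5* at -1.2914, *CEP1* at -1.2983, *ABA2* at -0.7417 and *MCM5* at -1.1424. *EXPA25* (listed as ATHEXP ALPHA 1.18) at 1.8398, *PHE1* at 2.1960, *GA3OX4* at 1.8895 and *SUVH7* at 1.5259 were listed at 0 in all Col-0 24HAI libraries, so these values come from the globular levels and are no bounds. *PHE1* had 195, 201 and 105 TPM in *vel3* globular seeds. Among data outside the tests, chloroplast and mitochondrial genes held 0.118% of the listed TPM in 24HAI endosperm and 8.591% in globular seeds, which is the higher share.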

How the results depend on the processing

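Of 3328 pairs of a named gene and an alternative setting (182 genes, 19 settings), 3300 kept direction and call, 14 lost the call (*FAD2*, *GAPC1*, *UBC21* and *JMJ13*), 7 gained it (*SWEET15* and *ACT2*) and 7 reversed. The reversals were *UBQ10*, at 0.0334 with TPM as deposited, 0.18 after median-ratio scaling and 0.0183 when rescaled without the 100 highest genes, *AGL80*, at 0.30 after quantile normalization, and *VEL1*, at -0.0046 with a pseudocount of 0.1 TPM, and without 1 library in turn between -0.32 and 0.29. The cause was not tested beyond these settings. A pseudocount of 0.1 TPM moved 107 of the 182 differences by over 1.5-fold, since it weighs values near 0 more.

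The counts of 2918 higher and 6575 lower genes came to 1349 and 2816 with 5 TPM required in both groups, where fewer genes were tested. Quantile normalization gave 4529 higher, no fold minimum 4678 higher, and a 4-fold minimum 1657 higher and 3945 lower. The median of -0.60 came to -0.72 with a 1 TPM filter, -0.34 with 5 TPM in both groups, -0.19 with TPM as deposited, -0.0519 after median-ratio scaling, 0.0474 after quantile normalization and -0.25 without the 100 highest genes. With 1 library left out, 2836 to 3030 genes were higher and 6338 to 6787 lower, with medians from -0.66 to -0.54. Summed over all listed genes, organelles included, the difference in share was -0.104% for oil synthesis, -0.831% for flavonoids and -0.0452% for cell division. Without the third globular library of *vel3*, chosen after seeing the data, its counts were 2759 and 6548. With the number in the column names as a replicate block, the same 2918 and 6575 genes were called, and 13839 genes had an adjusted p under 0.05, against 14082 without the block. Deviations from the group means in same-numbered libraries correlated across 16270 genes at -0.0287, -0.0062 and 0.0501. A shared batch could act on other genes in each tissue, so these values cannot show whether same-numbered libraries shared one. The block changed no call of a named gene.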

Other observations

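The second 24HAI library had the highest 24HAI value in 17 of 20 genes of oil mobilization, 9 of 11 of wall loosening, 23 of 28 of photosynthesis, 21 of 26 of cell division and 9 of 11 of mucilage. It had the lowest in 9 of 9 storage genes, 8 of 8 oil body genes and 10 of 11 LEA genes. The labels give all 3 libraries the same imbibition of 24 h, and this library was kept in all results.

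Of 342 ribosomal protein genes 316 were tested, 45 were higher and 59 lower (14.2% and 18.7%, beside 17.9% and 40.4% over all genes), with a median of -0.10 beside -0.60 over all genes, and they held 5.05%, 6.94% and 5.50% of nuclear TPM in 24HAI endosperm, against 6.01%, 5.55% and 5.29% in globular seeds. Histone genes were higher in 5 and lower in 34 of 47 tested (10.6% and 72.3%), and in 3 and 24 of the 35 at 5 TPM or more in both groups, with a median of -1.94.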
